A study of Mus musculus with 8 samples.

Results

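Melanoma cells can move between a pigmented, melanocytic state driven by the transcription factors Mitf and Sox10 and states with little pigment, in which genes of the neural crest or of mesenchymal, invasive cells are active. This change is known as phenotype switching. The 10 genes described here were chosen by name as a group for its neural crest-like and invasive ends, although not each of them marks these. They are Axl, Egfr and Ngfr (receptors), Wnt5a (a ligand), Sox9, Zeb1, Zeb2 and Snai2 (transcription factors), Nt5e (a surface enzyme) and Aqp1 (a channel). All 10 were in the deposited table of 28918 genes. In melanoma, high Axl with low Mitf marks the invasive state, Ngfr and Aqp1 mark neural crest-like cells, and in human melanoma ZEB2 and SNAI2 are known to go with the pigmented state while ZEB1 goes with the invasive one.

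The samples were subcutaneous tumors of B16-mhgp100, a mouse B16 melanoma line that carries a gp100 antigen, grown in C57BL/6 mice. The Colq group over-expressed Colq, the collagen-like tail subunit of acetylcholinesterase, and the vector group over-expressed the vector in its place. Mice of both groups received anti-PD1, an antibody against a T cell checkpoint receptor, which began on day 10 of tumor growth with 200 µg per dose and 2 doses a week, 4 in all. Harvest followed the final dose by 1 day. Polyadenylated RNA of whole tumors was sequenced, so host stroma and immune cells are in every library. Which promoter drives the transgene, whether a line is 1 clone and how old the mice were is not stated in the labels. The 3 Colq tumors gave 1 library each. The 3 vector tumors gave 5, because tumors 1 and 2 were sequenced as 2 portions each. Levels are in TPM, a transcript share scaled to transcript length, which can be compared between genes. After averaging of portions there were 3 Colq tumors and 3 vector tumors.

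The targeted gene itself, Colq, had 4.05, 5.03 and 3.86 TPM in its over-expressing libraries, against 0 to 0.24 TPM in the vector libraries. The melanocytic markers Pmel (3172.2 ± 120.2 TPM in Colq tumors, 6612.2 ± 342 TPM in vector tumors) and Mlana (2136 ± 24.6 TPM in Colq tumors, 1809.7 ± 321.4 TPM in vector tumors; SD, n = 3 each) were abundant in both groups, as in a pigmented melanoma. The 3 Colq libraries lay closer to each other than any vector libraries did. Their root mean square difference over the tested genes was 0.362 to 0.393 on the log2 scale. It was 0.511 and 0.516 between portions of 1 vector tumor and 0.449 to 0.56 between different vector tumors. Skeletal muscle markers summed to 1004.7 to 1021.7 TPM in Colq libraries and 35.3 to 186 TPM in vector libraries. The part of this tissue difference in the results below was not tested.

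Genes were tested on log2(TPM + 1) where their mean was at least 1 TPM over the 6 tumors. Of the 10 genes, 7 passed this filter. Egfr, Ngfr and Wnt5a did not, and they were compared by an exact permutation test over tumors, whose smallest two-sided p is 0.1. A gene is said to have risen or fallen where its limma p, Benjamini-Hochberg adjusted over all 13726 tested genes, was under 0.05. The fall was the common direction: 59.6% of all tested genes fell and 11.3% rose, with a median log2 fold change of -0.50. After median-of-ratios size factors, which bring that median to -0.01, 26.8% fell and 27.3% rose. Another scale took out the dependence of fold change on exonic length and GC content, and there 27.6% fell and 19.6% rose. Without the filter 29.3% of 27546 genes fell and 6.29% rose, and with the Colq libraries counted as 1 sample 41.6% fell and 5.74% rose.

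On deposited TPM, 5 of the 7 tested genes fell (Axl, Sox9, Zeb2, Nt5e and Aqp1) and 0 rose by limma, and the counts were the same at an unadjusted p under 0.05. The tumors of the groups did not overlap for 6 of the 7, all lower in Colq tumors, where 62.2% of all tested genes were lower without overlap. After size factors Zeb2 and Aqp1 were still called lower, 2 of 7. With the length and GC trend removed 1 fell, Aqp1, and 1 rose, Zeb1. Without the filter 5 of the 10 genes fell, with Wnt5a in and Nt5e out, and with the Colq libraries as 1 sample 2 fell. Nt5e averaged 0.613 TPM in Colq tumors and passed the filter through the vector tumors, so these counts describe the tested genes and do not stand for all 10. Bulk RNA does not tell fewer cells of a type from less RNA per cell, and this holds for every gene below.

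**Figure D1:**
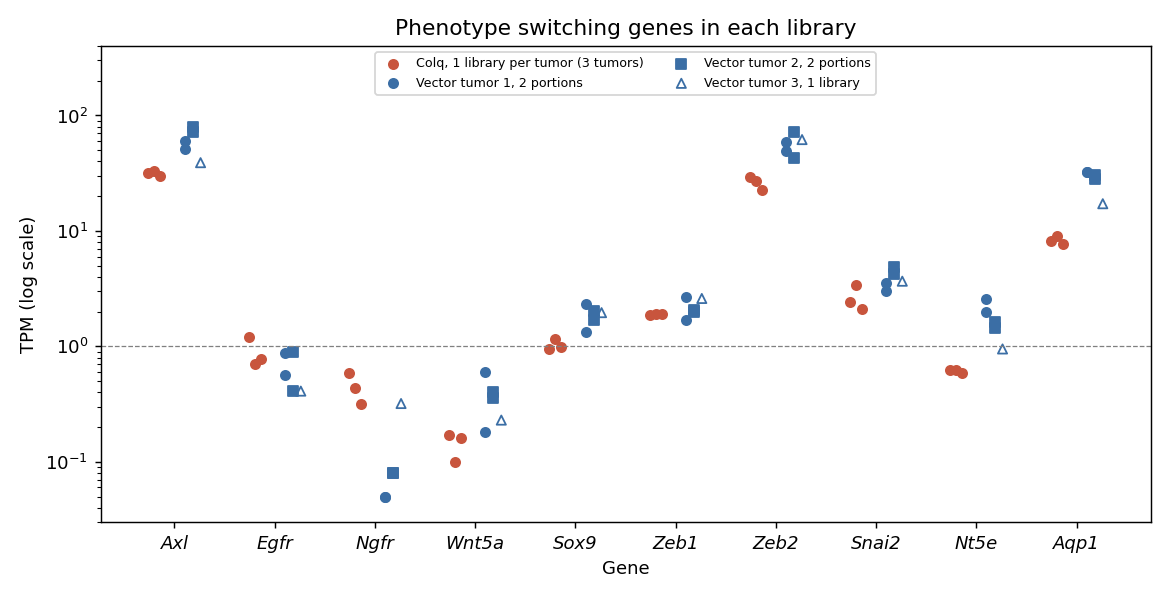
TPM of the 10 genes in each library (log axis), with Colq libraries left of the vector libraries and each vector tumor in its own symbol; the dashed line marks 1 TPM. Aqp1 lies at 7.67 to 9.04 TPM in Colq libraries and at 17.2 to 32.7 TPM in vector libraries, while Egfr, Ngfr and Wnt5a lie near or below 1 TPM in both groups.

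By level over the 6 tumors, Axl (44.1 TPM) and Zeb2 (42.0 TPM) came first, at percentiles 89.2 and 88.8 of all genes in the table. Aqp1 followed at 17.3 TPM, then Snai2 at 3.24, Zeb1 at 2.08, Sox9 at 1.46 and Nt5e at 1.10 TPM. The lowest were Egfr at 0.746, Ngfr at 0.300 and Wnt5a at 0.238 TPM. Axl and Zeb2 had means within their spread of each other, as did Ngfr and Wnt5a. For comparison, Mitf averaged 212.2 TPM and Sox10 265.3 TPM.

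In the GENCODE annotation of GRCm38 the genes lie on 8 chromosomes, with Egfr, Ngfr and Sox9 sharing chromosome 11. Axl spans chr7:25757273-25788705 on the minus strand, Zeb2 chr2:44983632-45117395 on the minus strand and Aqp1 chr6:55336432-55348555 on the plus strand. Between the portions of 1 vector tumor, the genes differed by at most 0.52 (tumor 1, Sox9) and 0.73 (tumor 2, Zeb2) on the log2 scale, where the median difference over all tested genes, regardless of sign, was 0.14 and 0.22. Aqp1 was the steadiest of the abundant genes, with portions 0.03 and -0.11 apart (second minus first).

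The surface receptors and the ligand were examined first. Axl is a receptor tyrosine kinase of the TAM family whose ligand is Gas6. It had 31.5, 33.2 and 30.1 TPM in the Colq libraries, against 59.6 and 51.4 TPM in the portions of vector tumor 1, 71.2 and 79.8 TPM in those of vector tumor 2 and 39.0 TPM in vector tumor 3. Every Colq library lay below every vector library, and vector tumor 3 was the vector tumor nearest to them. The means were 31.6 ± 1.58 TPM in Colq tumors, against 56.6 ± 18.3 TPM in vector tumors (SD, n = 3 each), a log2 fold change of -0.77 (95% interval -1.26 to -0.28; limma, adjusted p = 0.012). After size factors the log2 fold change was -0.23 (adjusted p = 0.39), and the authors' deposited table, which comes from DESeq2, gave -0.29 (SE 0.18, adjusted p = 0.19). Removing the length and GC trend (-0.14, adjusted p = 0.60) or counting the Colq libraries as 1 sample (adjusted p = 0.16) also ended the call. Without vector tumor 2, the highest, the log2 fold change was -0.54.

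Macrophages also express Axl, so their markers are given beside it. The 14 macrophage markers summed to between 1708.7 and 1761.8 TPM in Colq libraries and between 497.5 and 1255.2 TPM in vector libraries, with 5 of 14 higher and 1 lower in Colq tumors on deposited TPM (median log2 fold change 0.64) and 11 higher and 0 lower after size factors (median 1.15). In the vector group, tumor 2 had the highest marker sums and the highest Axl, and tumor 3 the lowest of both. The marker sum and Axl thus lay in opposite order between the groups and in the same order among vector tumors, and the part of macrophages in the Axl values was not tested. Lyz2 held a large part of the sum (869.3 ± 4.37 TPM in Colq tumors, 187.5 ± 32.5 TPM in vector tumors). Other markers, such as Adgre1, Csf1r and Cd68, overlapped between the groups on deposited TPM. Gas6, the Axl ligand, rose to 15.7 ± 0.251 TPM in Colq tumors, against 7.87 ± 1.11 TPM in vector tumors (log2 fold change 0.94, limma, adjusted p = 0.00022), and stayed called after size factors (1.44, adjusted p = 9.8e-05). The other TAM receptors fell on deposited TPM: Tyro3 by 1.15 (adjusted p = 9.2e-05) and Mertk by 0.54 on the log2 scale (adjusted p = 0.0061). After size factors Tyro3 stood at -0.67 (adjusted p = 0.0024) and Mertk at -0.09 (adjusted p = 0.60).

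Egfr, the epidermal growth factor receptor, had 1.2, 0.71 and 0.780 TPM in the Colq libraries. In the vector libraries it had 0.880 and 0.560 TPM (tumor 1), 0.900 and 0.410 TPM (tumor 2) and 0.410 TPM (tumor 3). The groups overlapped once portions were averaged (exact permutation p = 0.2), with means of 0.897 ± 0.265 TPM in Colq tumors, against 0.595 ± 0.163 TPM in vector tumors (SD, n = 3 each). After size factors the difference was 0.49 on the log2 scale (exact permutation p = 0.1, the smallest possible). The authors' deposited table listed Egfr as higher, with a log2 fold change of 1.14 (SE 0.33, adjusted p = 0.0020) and a mean normalized count of 80.1. Among genes with an adjusted p there, 20.1% were higher and 20.4% lower at 0.05.

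Keratinocytes and fibroblasts carry Egfr, and both marker lists differed between libraries. The first portion of each of vector tumors 1 and 2 held more Egfr than the second, and the same portions held more Krt14, a basal keratinocyte keratin (132.9 and 0.18 TPM in the portions of vector tumor 1, 15.4 and 0 TPM in those of vector tumor 2). Krt14 ranged between 3.99 and 5.87 TPM in the Colq libraries and was not called between the groups (limma, adjusted p = 0.51). On deposited TPM 5 of the 8 tested keratinocyte markers rose and 1 fell (median log2 fold change 1.38), and 5 rose and 0 fell after size factors (median 1.76). The 12 keratinocyte markers summed to 46.9 to 52.9 TPM in Colq libraries and 2.68 to 258.1 TPM in vector libraries, and the 14 fibroblast markers to 538.8 to 582.2 TPM and 265.7 to 485.7 TPM in the same order of groups. Their part in the Egfr values was not tested. Of the Egfr relatives, Erbb3, a receptor prominent in the melanocyte lineage, fell to 7.73 ± 0.502 TPM in Colq tumors, against 21.7 ± 4.11 TPM in vector tumors (log2 fold change -1.35, limma, adjusted p = 9.9e-05; -0.84 and 0.0019 after size factors). The ligand Hbegf fell by 0.52 on the log2 scale on deposited TPM (limma, adjusted p = 0.010) and stood at -0.10 after size factors (adjusted p = 0.57).

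Ngfr, the p75 neurotrophin receptor and the usual marker of neural crest-like melanoma cells, was scarce. It had 0.590, 0.440 and 0.320 TPM in the Colq libraries, against 0.05 TPM in both portions of vector tumor 1, 0.08 TPM in both of vector tumor 2 and 0.320 TPM in vector tumor 3. Vector tumor 3 equalled the lowest Colq library to 2 decimals, and the other vector libraries lay well below. The exact permutation p was 0.2, with means of 0.450 ± 0.135 TPM in Colq tumors, against 0.150 ± 0.148 TPM in vector tumors (SD, n = 3 each). After size factors the groups did not overlap, with a difference of 0.47 on the log2 scale (exact permutation p = 0.1, the smallest possible). The authors' deposited table listed Ngfr as higher (log2 fold change 2.10, SE 0.75, adjusted p = 0.014) on a mean normalized count of 15.4.

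Schwann cells of nerves also express Ngfr. Of the 9 tested Schwann markers 1 rose and 3 fell (median log2 fold change -0.06), and after size factors 4 rose and 1 fell (median 0.39). Among all tested genes 11.3% rose and 59.6% fell, and after size factors 27.3% and 26.8%. The summed list, most of which is Sox10 and Mbp, lay at 324.1 to 344.4 TPM in Colq libraries and 570.2 to 689.9 TPM in vector libraries. The part of nerve tissue in the Ngfr values was not tested.

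Wnt5a, a Wnt ligand that signals without beta-catenin and promotes motility in melanoma, had 0.170, 0.1 and 0.160 TPM in the Colq libraries. The vector libraries held 0.600 and 0.18 TPM (tumor 1), 0.400 and 0.360 TPM (tumor 2) and 0.230 TPM (tumor 3). The tumor means of the groups did not overlap (0.143 ± 0.0379 TPM in Colq tumors, 0.333 ± 0.0896 TPM in vector tumors; SD, n = 3 each; exact permutation p = 0.1, the smallest possible), among all genes above 0, of which 45.1% did not overlap in either direction. After size factors the exact permutation p was 0.3. Without the filter on low values Wnt5a passed the limma test (log2 fold change -0.21, adjusted p = 0.046). The authors' deposited table gave -0.64 (SE 0.64, adjusted p = 0.47). The Wnt5a receptors Ryk (21.7 ± 0.228 TPM in Colq tumors, 34.9 ± 0.857 TPM in vector tumors) and Fzd7 (28.6 ± 1.77 and 57.6 ± 5.99 TPM in the same order) were far more abundant than the ligand and fell on deposited TPM (limma, adjusted p = 7.5e-05 and 7.2e-05). Fzd7 stayed called after size factors (-0.44, adjusted p = 0.0038) and Ryk did not (-0.12, adjusted p = 0.15). Ror1 and Ror2 stood at or below 0.175 TPM in both groups.

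Across the 30 partners of these receptors, 15 were tested, of which 12 fell and 1, Gas6, rose on deposited TPM (median log2 fold change -0.66, against -0.50 for all tested genes). After size factors 6 fell and 1 rose (median -0.23, against -0.01). Among all tested genes 59.6% fell and 11.3% rose, and after size factors 26.8% and 27.3%. Sort1, the sortilin co-receptor of Ngfr, had the smallest p of the list, at 46.0 ± 1.72 TPM in Colq tumors, against 122.6 ± 10.9 TPM in vector tumors (log2 fold change -1.38, limma, adjusted p = 1.6e-05).

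The transcription factors did not move alike. Zeb2, a zinc finger repressor, had 29.5, 27.0 and 22.5 TPM in the Colq libraries, against 58.6 and 49.3 TPM (vector tumor 1), 42.8 and 71.5 TPM (vector tumor 2) and 61.8 TPM (vector tumor 3). The groups lay apart in every library, although the portions of vector tumor 2 differed by 0.73 on the log2 scale, where the median over tested genes was 0.22. Zeb2 averaged 26.3 ± 3.53 TPM in Colq tumors, against 57.6 ± 3.97 TPM in vector tumors (SD, n = 3 each), with a log2 fold change of -1.09 (95% interval -1.35 to -0.84; limma, adjusted p = 9.7e-05). It was -0.55 after size factors (adjusted p = 0.0029) and -0.57 in the authors' deposited table (SE 0.11, adjusted p = 5.1e-07). The call was lost with the length and GC trend removed (-0.19, adjusted p = 0.11). The union of Zeb2 exons spans 19942 bases in the annotation used, and the 2172 tested genes of 8000 bases or more had a median log2 fold change of -0.88. The antisense gene Zeb2os shares 653 exonic bases with Zeb2 and stood at 5.05 to 7.40 TPM over all libraries. Within these shared bases, reads of the pair cannot be told apart without strand.

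Zeb1, the paralog, had 1.88, 1.89 and 1.91 TPM in the Colq libraries, against 2.66 and 1.69 TPM (vector tumor 1), 1.99 and 2.05 TPM (vector tumor 2) and 2.60 TPM (vector tumor 3). The Colq libraries lay within the range of the vector libraries, although with portions averaged every Colq tumor lay below every vector tumor. The log2 fold change of -0.16 did not pass (95% interval -0.49 to 0.16; limma, adjusted p = 0.32). Its sign depends on the scale: 0.21 after size factors (adjusted p = 0.22), 0.32 in the authors' deposited table (SE 0.22, adjusted p = 0.25) and 0.68 after length and GC removal (adjusted p = 0.0051). Among the 2172 tested genes of 8000 bases or more, Zeb1 stood at percentile 92.0 by log2 fold change and Zeb2 at percentile 30.1.

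Sox9, a factor of neural crest and of stem-like cells, had 0.940, 1.16 and 0.980 TPM in the Colq libraries and 1.33 and 2.33 TPM (tumor 1), 1.70 and 2.04 TPM (tumor 2) and 1.96 TPM (tumor 3) in the vector libraries. Every Colq library lay below every vector library. Sox9 fell to 1.03 ± 0.117 TPM in Colq tumors, against 1.89 ± 0.0666 TPM in vector tumors (SD, n = 3 each; log2 fold change -0.50, 95% interval -0.85 to -0.16; limma, adjusted p = 0.017). This equals the median of all tested genes, and after size factors the value was -0.18 (adjusted p = 0.32). In the authors' deposited table it was -0.33 (SE 0.26, adjusted p = 0.35). Taking the Colq libraries as 1 sample also ended the call (adjusted p = 0.091).

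Snai2, the factor Slug, of melanocyte precursors and of mesenchymal cells, had 2.41, 3.39 and 2.12 TPM in the Colq libraries, against 3.54 and 3.01 TPM (vector tumor 1), 4.24 and 4.87 TPM (vector tumor 2) and 3.67 TPM (vector tumor 3). The groups overlapped through Colq tumor 2. The log2 fold change of -0.41 did not pass (95% interval -0.83 to 0.00; limma, adjusted p = 0.069), and it was 0.00 after size factors (adjusted p = 0.98) and 0.02 in the authors' deposited table (SE 0.29, adjusted p = 0.98). Without Colq tumor 2 it was -0.56 (adjusted p = 0.029).

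The surface enzyme and the channel came last. Nt5e, also called CD73, is the ectoenzyme that makes extracellular adenosine from AMP. It had 0.630, 0.620 and 0.590 TPM in the Colq libraries, against 2.56 and 1.99 TPM (vector tumor 1), 1.63 and 1.43 TPM (vector tumor 2) and 0.950 TPM (vector tumor 3). The groups did not overlap, and the vector tumors were spread widely, with tumor 3 nearest to the Colq tumors. Nt5e fell to 0.613 ± 0.0208 TPM in Colq tumors, against 1.58 ± 0.664 TPM in vector tumors (SD, n = 3 each; log2 fold change -0.65, 95% interval -1.17 to -0.13; limma, adjusted p = 0.032). The call was lost when any 1 of the 3 Colq tumors or vector tumor 1 or 2 was left out (adjusted p = 0.056 to 0.076) and after size factors (-0.39, adjusted p = 0.18). In the authors' deposited table it was -0.84 (SE 0.39, adjusted p = 0.073).

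Of the 12 genes around Nt5e in adenosine handling, 9 were tested, of which 2 fell and 1 rose (median log2 fold change -0.04). After size factors 1 fell and 3 rose (median 0.32). Among all tested genes 59.6% fell and 11.3% rose, and after size factors 26.8% and 27.3%. Slc29a1, an equilibrative nucleoside transporter, fell to 25.4 ± 2.20 TPM in Colq tumors, against 58.9 ± 8.78 TPM in vector tumors (limma, adjusted p = 0.00012), and Adora2b, an adenosine receptor, rose to 1.91 ± 0.102 TPM, against 1.06 ± 0.172 TPM in vector tumors (adjusted p = 0.019). Entpd1, or CD39, which makes the AMP that Nt5e uses, stood at 10.6 ± 7.5 TPM in Colq tumors, against 8.07 ± 1.63 TPM in vector tumors (adjusted p = 0.68).

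Aqp1, a water channel, showed the largest fold change of the 10 genes on deposited TPM. It had 8.19, 9.04 and 7.67 TPM in the Colq libraries, against 32.1 and 32.7 TPM (vector tumor 1), 30.3 and 28.1 TPM (vector tumor 2) and 17.2 TPM (vector tumor 3). Each vector library lay above all Colq libraries, with vector tumor 3 apart from the other vector libraries. Aqp1 fell to 8.30 ± 0.692 TPM in Colq tumors, against 26.3 ± 8.04 TPM in vector tumors (SD, n = 3 each; log2 fold change -1.51, 95% interval -2.02 to -0.99; limma, adjusted p = 0.00057). It was the 1 gene of the 7 that stayed called on every scale, at -0.99 after size factors (adjusted p = 0.0082), -1.19 after length and GC removal (adjusted p = 0.0030) and -1.12 in the authors' deposited table (SE 0.21, adjusted p = 8.7e-07). Among the 3848 tested genes of 2000 to 4000 exonic bases, whose median was -0.38, Aqp1 stood at percentile 0.5.

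**Figure D2:**
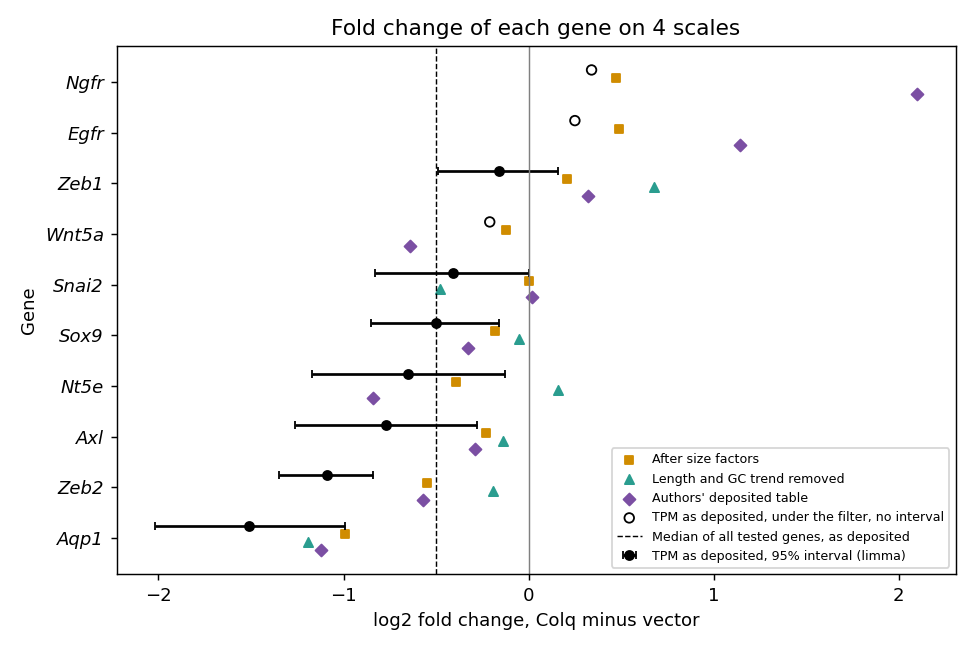
Log2 fold change, Colq minus vector, of each gene on deposited TPM (black, with the limma 95% interval; open where the gene was under the filter), after size factors, after length and GC removal, and in the authors' deposited table; the dashed line marks the median of all tested genes, -0.50. Aqp1 lies at -0.99 or lower on all 4 scales, while Zeb1 lies at -0.16 on deposited TPM and above 0 on the other scales.

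Endothelium and red cells carry Aqp1. Of the 13 tested endothelial markers 12 fell and 0 rose on deposited TPM (median log2 fold change -1.19; limma, none higher at an adjusted p of 0.05), and 10 fell after size factors (median -0.79). Among all tested genes 59.6% fell and 11.3% rose on deposited TPM, and after size factors 26.8% and 27.3%. The endothelial sum was 102.4 to 104.2 TPM in Colq libraries and 198.9 to 252.1 TPM in vector libraries. The 8 red cell genes summed to 636.5 to 676 TPM in Colq libraries and 559.6 to 3136.9 TPM in vector libraries, and vector tumor 3, the lowest of its group for Aqp1, was also the lowest for red cell genes. Vector tumor 3 had the highest endothelial sum of the vector libraries and the lowest level of Plvap, an endothelial diaphragm protein. Pecam1, another endothelial marker, was also lowest there, at 13.4 TPM, against 15 to 21.9 TPM in the other vector libraries. The sum includes Vwf, which was uneven among vector tumors (58.5 ± 38.1 TPM, SD, n = 3). Of the 9 tested pericyte and smooth muscle markers 7 fell and 1 rose (median -0.95). The part of vessels and blood in the Aqp1 values was not tested.

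**Figure D3:**
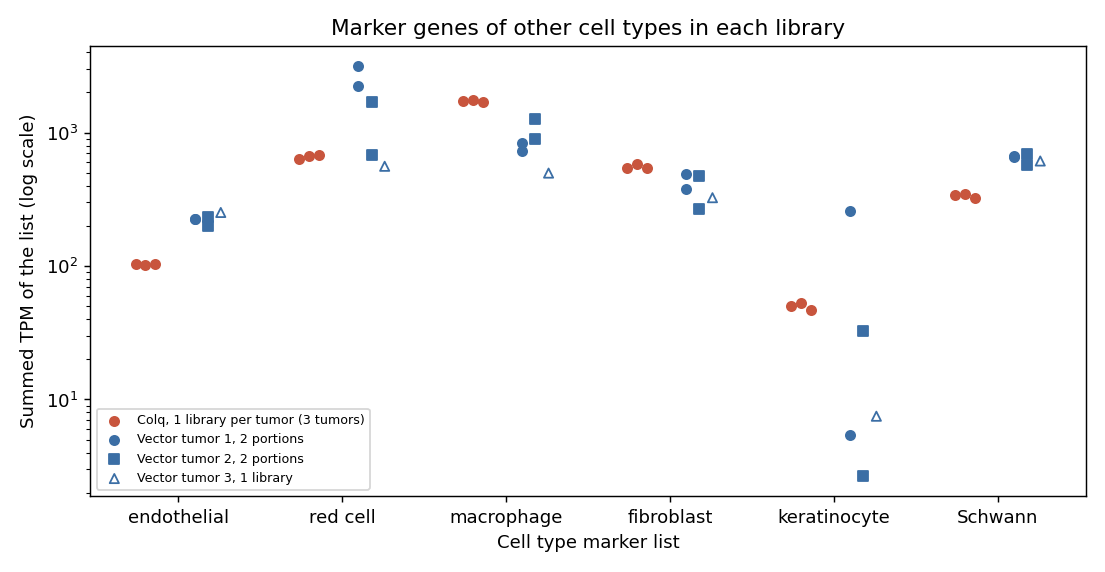
Summed TPM of 6 lists of cell type markers in each library (log axis), with Colq libraries left of vector libraries. Endothelial sums lie at 102.4 to 104.2 TPM in Colq libraries and 198.9 to 252.1 TPM in vector libraries, and keratinocyte sums range from 2.68 to 258.1 TPM among vector libraries.

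Genes with the most similar profile over the 8 libraries were sought for the 3 genes with the largest fold changes, by the root mean square difference of centred log2(TPM + 1) values. For Aqp1 these were Plvap, with a difference of 0.114, and Cd109, a surface glycoprotein, also 0.114; 58 of the 13726 tested genes lay within 0.25. Plvap had 12.5, 12.2 and 11.5 TPM in the Colq libraries and 26.1 to 44.4 TPM in the vector libraries. For Zeb2, Cabin1 lay at 0.071, and 2971 genes lay within 0.25. For Axl they were Pde1b (0.042) and Slfn8 (0.073), with 609 within 0.25. The Zeb2 and Axl profiles were therefore shared by many more genes than that of Aqp1, and this is a description over libraries of which 4 are portions of shared tumors.

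The stretch before the Aqp1 and Axl starts is shown because these genes gave the largest fold change and the highest level of the 10, and because each holds 1 match to a motif of the factors discussed. A RefSeq promoter entry (GRCm38.p6) was found for 6 of the 10 genes. The 250 bases before the start were searched on both strands for CAGGTG (the E-box that Zeb and Snai factors bind), CATGTG or CACGTG (the E-boxes of Mitf), TGANTCA (AP-1), GGAATG (TEAD) and AACAAT (SOX). Capitals mark the match, in Aqp1 the reverse strand of CAGGTG and in Axl GGAATG.
Aqp1 (chr6:55336049-55336298, plus strand): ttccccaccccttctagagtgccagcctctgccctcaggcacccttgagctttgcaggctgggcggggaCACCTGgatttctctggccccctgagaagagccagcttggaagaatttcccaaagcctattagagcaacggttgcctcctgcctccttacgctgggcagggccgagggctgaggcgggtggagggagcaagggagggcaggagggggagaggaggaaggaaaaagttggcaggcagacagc
Axl (chr7:25788734-25788983, minus strand): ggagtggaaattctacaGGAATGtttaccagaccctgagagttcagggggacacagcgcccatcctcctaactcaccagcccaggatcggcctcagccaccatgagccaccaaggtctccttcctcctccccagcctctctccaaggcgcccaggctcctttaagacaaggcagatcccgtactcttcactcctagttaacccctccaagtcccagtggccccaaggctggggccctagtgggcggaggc
CAGGTG was present in 17.3% of 32536 such windows over all genes and GGAATG in 12.6%, so single matches are common. The other 4 windows (Egfr, Ngfr, Nt5e and Zeb2) held none of the motifs, which says only that these letters are not there.

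The classical readout of the switch sets Axl against Mitf. Mitf itself fell to 111.9 ± 5.75 TPM in Colq tumors, against 312.5 ± 41.9 TPM in vector tumors (log2 fold change -1.46, limma, adjusted p = 2.5e-05), and stayed called after size factors (-0.91, adjusted p = 0.00026). Within a tumor the ratio of TPM does not depend on the scale of the library. The ratio of Axl to Mitf was 0.267, 0.298 and 0.283 in Colq tumors 1, 2 and 3, and 0.191, 0.264 and 0.108 in vector tumors 1, 2 and 3. The groups did not overlap, but Colq tumor 1 exceeded vector tumor 2 by only a small margin, and vector tumor 3 lay far below the others. The mean ratio was 1.51 times higher in Colq tumors (exact permutation p = 0.1, the smallest possible; 0.15 adjusted over 20 ratios of the 10 genes to Mitf and to Sox10).

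A higher ratio to Mitf was common to most genes, since Mitf fell by more than the median gene. Over 13725 tested genes the median ratio to Mitf was 1.86 times higher in Colq tumors, above the value of Axl, and 81.7% of them were higher without overlap of the groups. The ratio of Zeb1 was 0.0170 ± 0.0010 in Colq tumors and 0.00725 ± 0.00021 in vector tumors (SD, n = 3 each), 2.34 times higher. That of Snai2 was 1.89 times higher, that of Sox9 1.51 times and that of Zeb2 1.26 times. Those of the scarce genes Egfr and Ngfr were 4.05 and 8.93 times higher, the Ngfr value moving to 17.7 without vector tumor 3. Of the 7 tested genes, 5 were higher without overlap, a share below that of all tested genes. With Egfr and Ngfr it was 7 of the 10 genes (exact permutation p = 0.1, adjusted 0.15), where 50.6% of all genes above 0 were. These counts are no result about the 10 genes in particular. The ratio of Aqp1 to Mitf was 0.0742 ± 0.0061 in Colq tumors and 0.0871 ± 0.035 in vector tumors (exact permutation p = 0.6), that of Nt5e 0.00548 ± 0.00012 and 0.00527 ± 0.0026 (exact permutation p = 0.8), and that of Wnt5a overlapped too (exact permutation p = 0.5). With Sox10 as the base the median tested gene was 1.69 times higher, and Axl was again without overlap, at 0.210 ± 0.00042 in Colq tumors and 0.149 ± 0.046 in vector tumors (exact permutation p = 0.1), whereas Zeb2 overlapped (exact permutation p = 0.3). These ratios mix RNA of melanoma and host cells.

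**Figure D4:**
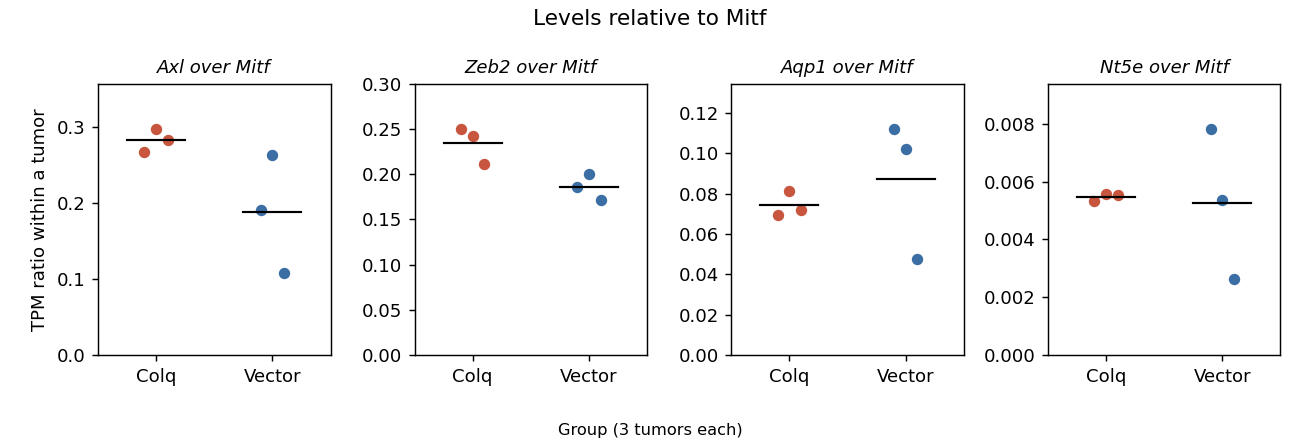
Ratio of TPM to that of Mitf within each tumor (points) and the group mean (line), for Axl, Zeb2, Aqp1 and Nt5e, from 0. The Axl ratio is 0.267 to 0.298 in Colq tumors and 0.108 to 0.264 in vector tumors, while the Aqp1 and Nt5e ratios overlap between the groups; the median tested gene was 1.86 times higher relative to Mitf in Colq tumors.

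Wider lists of genes for the same states were counted in the same fit. Some genes of these lists and of the cell type lists averaged under 1 TPM in Colq or in vector tumors. They passed the filter through the other group, so the counts describe the tested genes only. In the invasive list these include Ankrd1, F2r and Itga3 among the falls (0.16, 0.89 and 0.81 TPM in Colq tumors). Fst, the 1 rise, averaged 0.922 TPM in vector tumors. Of 28 tested genes of the invasive state 22 fell and 1 rose on deposited TPM (median log2 fold change -0.82, against -0.50 over all genes). After size factors 12 fell and 4 rose (median -0.31, against -0.01). Among all tested genes 59.6% fell and 11.3% rose, and after size factors 26.8% and 27.3%. Ccn2, a secreted matrix protein and a target of the Yap and Tead factors, fell to 4.83 ± 0.121 TPM in Colq tumors, against 23.2 ± 3.00 TPM in vector tumors (log2 fold change -2.04, limma, adjusted p = 1.4e-05; -1.55 after size factors). Its relative Ccn1 fell by 1.10 and Thbs1, thrombospondin, by 1.90 on the log2 scale (adjusted p = 2.8e-05 and 4.7e-05), and both stayed called after size factors and after length and GC removal. Many genes of the list did not stay called after length and GC removal. There 9 of the 28 fell and 3 rose (median -0.21), where 27.6% of all genes fell and 19.6% rose (median -0.08). Wwtr1, the coactivator Taz, fell by 0.77 (adjusted p = 5.3e-05) and by 0.24 after size factors (adjusted p = 0.023). Endothelial and stromal cells express several of these genes as well.

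Of 11 tested epithelial to mesenchymal transition genes 7 fell and 3 rose (median -0.85), where 59.6% of all tested genes fell and 11.3% rose. After size factors 6 fell and 3 rose (median -0.30), where 26.8% of all tested genes fell and 27.3% rose. Those that fell included Vim, vimentin, at 1196.3 ± 51.1 TPM in Colq tumors, against 2268.5 ± 174 TPM in vector tumors, Cdh2, N-cadherin, at 12.1 ± 0.516 and 27.9 ± 1.2 TPM, and Fn1, fibronectin, at 26.6 ± 0.156 and 82.4 ± 18.1 TPM in the same order. Tcf4, a bHLH factor, fell by 1.34 on the log2 scale (limma, adjusted p = 2e-05). The 3 that rose were Twist1 (3.20 ± 0.182 TPM in Colq tumors, 0.875 ± 0.0687 TPM in vector tumors), Twist2 and Prrx1, mesenchymal transcription factors that dermal fibroblasts express, named after their values were seen. Twist1 and Twist2 (0.785 TPM in vector tumors) passed the filter through the Colq tumors. The 3 rose in tumors in which 9 of 14 fibroblast markers rose and 3 fell (median 0.70), among them Dpt, Clec3b, Lum and Dcn with log2 fold changes of 1.74 to 3.92. The part of fibroblasts in these values was not tested.

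Of 11 tested neural crest-like genes 5 fell and 2 rose (median -0.69), where 59.6% of all tested genes fell and 11.3% rose. After size factors 3 fell and 3 rose (median -0.24), where 26.8% of all tested genes fell and 27.3% rose. Nes, the neural progenitor filament nestin, fell to 3.06 ± 0.372 TPM in Colq tumors, against 15.1 ± 2.61 TPM in vector tumors (limma, adjusted p = 3e-05), and Cadm1, an adhesion molecule, to 30.6 ± 1.24 TPM, against 89.9 ± 8.08 TPM in vector tumors (adjusted p = 1.4e-05). Foxd3, Tfap2b, Rxrg and Sox8, factors of early neural crest or glia, averaged at most 0.173 TPM in either group.

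By list median, the pigmented state did not move in the opposite direction to the invasive genes. Of 22 tested melanocytic genes 16 fell and 2 rose (median -0.79), where 59.6% of all tested genes fell and 11.3% rose. After size factors 11 fell and 4 rose (median -0.24), where 26.8% of all tested genes fell and 27.3% rose. Sox10 fell to 150.6 ± 7.38 TPM in Colq tumors, against 380 ± 18.5 TPM in vector tumors (limma, adjusted p = 1.1e-05), and Pmel, Tyrp1 and Slc45a2, genes of melanosome structure and melanin synthesis, fell by 1.06, 1.30 and 1.04 on the log2 scale (adjusted p = 1.6e-05, 2e-05 and 1.2e-05). Each of these 4 stayed called after size factors. Other pigment genes were higher on that scale: Mlana by 0.81, Rab38 by 1.03 and Tyr by 0.36 (limma, adjusted p = 0.0012, 0.00057 and 0.0017). Dct stood at -0.13 there (adjusted p = 0.43), so the pigment genes did not fall as a whole. Both the invasive and the melanocytic lists thus had medians below that of all tested genes, on deposited TPM and after size factors; a test of the difference between lists was not made.

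**Figure D5:**
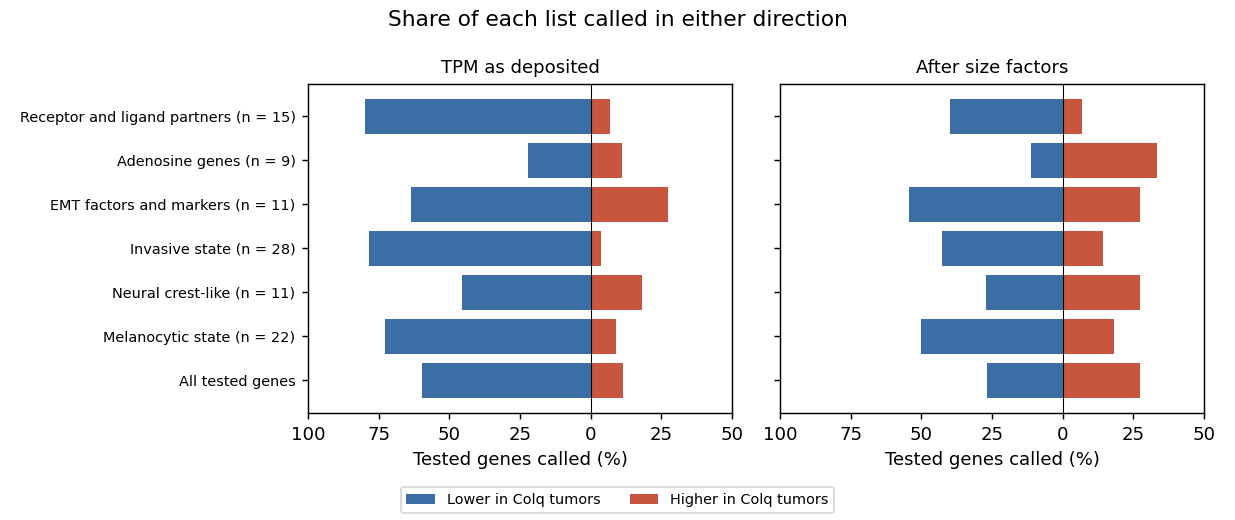
Share of the tested genes of 6 lists that were called higher (right) or lower (left) in Colq tumors, on deposited TPM and after size factors, with all tested genes at the bottom. Of the 28 invasive state genes 22 were lower and 1 higher on deposited TPM, where 59.6% of all tested genes were lower and 11.3% higher.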

How the data were processed

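Whole-tumor RNA of 8 libraries was measured by RNA-seq with a kit that keeps no strand, per the labels' protocols. The deposited expression values are log2(TPM + 1), as the values themselves show. The authors made TPM with RSEM on mm39, per the submitters' processing notes; no aligner, version or annotation is named in the labels. The authors' deposited comparison (a log2 fold change with its SE, a p-value and adjusted p, and a mean normalized signal per gene) came from DESeq2, per the submitters' processing notes and the file headers; the libraries that entered it are not named, and the positive value of Colq there gave its direction. The authors' deposited test score (a Wald statistic) was not used. The table of receptor clonotypes was not used here.

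Groups and replicate numbers came from the titles. Portions were averaged on the log2 scale for fits and as TPM for means. Genes with a mean of at least 1 TPM were tested with limma 3.58.1 in R 4.3.3 (trended eBayes), Colq minus vector, with Benjamini-Hochberg adjustment. Single values were compared by exact two-sided permutation of tumors. SDs are over tumors, and nothing says whether the Colq libraries came from separate animals beyond their labels as tumors 1 to 3. Depth cannot be had from TPM, so counting error is unknown and the spread over tumors sets the precision.

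The members, lists and tests were chosen with earlier results of these data known. Named genes are the 10 members, up to 4 genes of each list by smallest p, the 2 nearest profiles of the 3 most changed members and Colq; other names were added after their values were seen, and some genes that the rule names are not reported here. Positions, exonic length and GC come from GENCODE on GRCm38, a build other than the authors', and cover 96.2% of tested genes. The loess span for length and GC was 0.5. The fit was tested on simulated data. Figures used matplotlib 3.10.9. The alternatives were pseudocounts of 0.1 and 0.5, other filters (none, 5 TPM), median-of-ratios size factors, quantile normalization, rescaling of TPM after removal of mitochondrial, haemoglobin and immunoglobulin genes, removal of the length and GC trend, other treatments of portions, a replicate block, robust moderation and leaving out each tumor. Counting the Colq libraries as 1 sample was added after the data were seen.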

Additional observations from a re-analysis of the deposited data

Results flagged for a closer look

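Both items below were found among 11 sets of the 5 vector libraries (10 genes and Colq), of which chance sets apart about 1 in 20, and portions of 1 tumor are not independent. Ngfr was high in vector tumor 3, at 0.320 TPM where the other vector libraries held 0.05 to 0.08 TPM, and the gap took a share of 0.877 of the group's range on the log2 scale. Aqp1 was low in the same tumor, at 17.2 TPM where the others held 28.1 to 32.7 TPM, with a share of 0.762. Without vector tumor 3 the difference of Ngfr was 0.44 in place of 0.34 on the log2 scale, and the log2 fold change of Aqp1 was -1.78 in place of -1.51 (limma, adjusted p = 3.9e-05).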

How the results depend on the processing

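Scale moved the counts most. Of all tested genes 1556 rose and 8181 fell on deposited TPM. After size factors 3742 rose and 3675 fell, with quantile normalization 3189 and 4160, and after length and GC removal 2588 and 3649. With the Colq libraries as 1 sample 788 rose, in a fit with fewer samples that assumes the lone sample varies like the vector tumors. Leaving out single tumors gave 1310 to 1549 rises and 7484 to 8216 falls. Among the 10 genes 7 were tested, of which 5 fell and 0 rose, where 59.6% of all tested genes fell and 11.3% rose. At a mean of at least 5 TPM 3 were tested and fell, after size factors 2 fell, and with quantile normalization 2 did. Removing the length and GC trend left 1 fall and 1 rise. The Colq libraries taken as 1 sample gave 2 falls. Without single tumors 4 to 5 fell and 0 rose. Over the 6 lists of related genes 10 rose and 63 fell. After size factors 18 rose and 38 fell, and 33 fell after length and GC removal. At 5 TPM 4 rose, and with the Colq libraries as 1 sample 3 rose. Without single tumors 7 to 11 rose and 58 to 65 fell. The cause was not tested.

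The sign turned for Zeb1 after size factors (0.21) and after length and GC removal (0.68), for Snai2 after size factors (0 after rounding) and for Nt5e after length and GC removal (0.16). Aqp1 kept its call in all 21 alternatives and Zeb2 in all but the length and GC removal. The replicate block, which pairs tumors by number, gave Snai2 a log2 fold change of -0.41 with an adjusted p of 0.049 and changed the call of none of the other tested members. Same-numbered tumors deviated together little (correlation 0.030, 0.007 and 0.044 over genes), so the numbers were not taken as pairs. Differences of Egfr, Ngfr and Wnt5a grew with a pseudocount of 0.1 (0.55, 1.26 and -0.77 on the log2 scale), since a pseudocount of 1 shrinks low genes.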
